A study of Mus musculus with 12 samples.

Results

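The response of cultured mouse hepatic stellate cells to transforming growth factor beta (TGFb) was followed by RNA sequencing in cells that carried a control siRNA. The cells were EMS404, a single stellate cell line of C57Bl6 origin that was immortalised with SV40 and expresses human TLR4. They were transfected with a scrambled siRNA and 48 h later received TGFb at 10 ng/mL, in 3 libraries, or vehicle, in 3 libraries, for a further 24 h. These are 6 of the 12 libraries of the series; the others carried an siRNA against Bmal1. No gene was selected. Every gene of the deposited expression table was compared, and 11208 of 15720 genes passed a filter of at least 0.5 FPKM (fragments scaled to transcript length and library size) on average over the 12 libraries. The triplicates are described as biological, yet whether each was grown as its own culture is not given. Every p-value below reflects the variation among libraries of this series alone, and the limma p-values take their spread from all 12. Because all libraries come from 1 immortalised line at 1 dose and 1 time, they describe that line at that time.

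TGFb binds paired serine/threonine kinase receptors, which phosphorylate SMAD2 and SMAD3. With SMAD4 these enter the nucleus and bind short DNA elements beside other factors, among them AP-1. In the injured liver the pathway is the best known driver of the change of a stellate cell into a contractile, matrix-secreting myofibroblast. Cells limit the signal by inducing inhibitors of it, such as SMAD7, SKIL and PMEPA1. BMPs, relatives of TGFb, signal through SMAD1 and SMAD5 and induce the Id genes.

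The libraries of a group were alike, and 1 TGFb library stood apart for interferon-induced genes. Across genes, Pearson correlations of log2(FPKM + 1) were 0.9937 to 0.9973 among TGFb libraries, 0.9962 to 0.9983 among vehicle libraries and 0.9694 to 0.9729 between the groups. FPKM totals were 445472 to 462525 with TGFb and 463216 to 483957 with vehicle, and steps among low values gave a rough depth of 29800000 to 32000000 fragments. The interferon-induced modifier Isg15 had 15.8, 99.1 and 32.3 FPKM in TGFb replicates 1 to 3, against 8.28, 6.75 and 8.26 FPKM with vehicle. Its log2 change was 2.13 (limma, adjusted p = 0.00139), and 1.44 without TGFb replicate 2 (adjusted p = 0.000351). Leaving out that library removed 19 of the 214 genes that had risen at least 2-fold, among them Ifit1, Ifit3, Cxcl10 and Oas1g.

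Markers of the cell type were checked next, and each of the quiescent, activated and mesothelial lists had some members present. Of the 28 quiescent markers, 13 passed the filter, and 4, Lrat among them, were not listed in the deposited values. Of the stellate cell transcription factors, Hand2 had 77.1 to 85.6 FPKM with TGFb and 118 to 135 FPKM with vehicle, and Lhx2 had 13.1 to 15.6 FPKM with TGFb and 13.3 to 14.8 FPKM with vehicle. Of the intermediate filament genes in the quiescent list, desmin (Des) had up to 1.13 FPKM and Gfap up to 0.04 FPKM, while Nes had 9.2 to 10.6 FPKM. Other quiescent markers ranged widely with vehicle, from Pparg at up to 0.05 FPKM to Pdgfra (38.3 to 47.9 FPKM), Ecm1 (87.2 to 96.0 FPKM) and Dcn (265 to 376 FPKM). Type I collagen and vimentin were abundant, but the activated markers Fap and Thbs2 stayed at or under 0.16 FPKM. Summed FPKM over 18 mesothelial and portal fibroblast markers was 864 to 970 with TGFb and 885 to 968 with vehicle. Fbln2 made up much of this sum, with 594 to 628 FPKM with TGFb and 329 to 349 FPKM with vehicle, so the sum hides falls of others. Of the 13 tested, 5 were called higher (38.5%, against 16.4% of all genes) and 7 lower (53.8%, against 29.1%). The uroplakin Upk3b, a mesothelial marker, fell to 33.3, 46.2 and 40.1 FPKM with TGFb, against 164, 178 and 188 FPKM with vehicle (log2 -2.13, adjusted p = 5.25e-06). Gpm6a fell as well (log2 -2.09). Mesothelin (Msln), of the same list, went the other way, with 12.4, 20.8 and 16.7 FPKM with TGFb, against 9.8, 10.5 and 12.3 FPKM with vehicle. Fbln2, Mfap4, Gli1 and Pi16 were called higher too, so the list had no common direction.

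Markers of other liver cell types ranged from listed at 0 to well expressed. The endothelial genes Pecam1, Cdh5 and Kdr stayed at or under 0.15 FPKM, the leukocyte genes Lyz2, Itgam and Laptm5 likewise, and Apob, Emcn and Nkg7 were listed at 0 in all 6 libraries. The 3 leukocyte markers that passed the filter all differed. Cd14, a lipopolysaccharide co-receptor, had 4.21 to 5.57 FPKM with TGFb and 7.06 to 8.85 FPKM with vehicle (log2 -0.60, limma adjusted p = 0.0002), and the macrophage marker Cd68 had 2.68 to 3.0 FPKM with TGFb and 3.72 to 4.71 FPKM with vehicle (log2 -0.45). The Fc receptor chain Fcer1g had 1.52, 1.44 and 1.46 FPKM with TGFb, against 0.69, 0.13 and 0.26 FPKM with vehicle (log2 0.88, adjusted p = 0.000517). Summed FPKM was 70.6 to 93.2 with TGFb and 199 to 220 with vehicle over 8 hepatocyte markers, nearly all of it transferrin (Trf, 2108 exon bases shared with another gene model) and Ass1. Over 11 cholangiocyte and epithelial markers it was 215 to 234 with TGFb and 82.4 to 93.2 with vehicle, mostly osteopontin (Spp1). The sums were 105 to 112 with TGFb and 80.4 to 84.7 with vehicle for 12 endothelial markers, mostly Eng, and 9.13 to 10.9 with TGFb and 12.1 to 14.4 with vehicle for 9 leukocyte markers. Whether these sums move with any gene group below through a change in cell makeup was not tested. In bulk RNA, fewer cells of a kind and less RNA per cell cannot be told apart.

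The response was broad and mostly small. At a Benjamini-Hochberg adjusted p under 0.05 in limma, 5105 of 11208 genes differed (45.5%), of which 1841 were higher with TGFb (16.4%) and 3264 lower (29.1%). Changes of at least 2-fold, taken as a log2 difference of 1 on the log2(FPKM + 1) scale used throughout, were found for 214 genes upward (1.91%) and 219 downward (1.95%). Most calls lay within a log2 change of 0.5 of zero, 2366 of them lower and 1219 higher. At the other end, 40 genes rose and 28 fell by a log2 change of 2 or more.

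The surplus of small falls depended on the scale. Deposited FPKM values are relative to the library, and the median log2 change over all tested genes was -0.05. Higher genes made up 36.1% of the calls on the deposited scale, 49.1% under median-of-ratios scaling and 47.5% under quantile normalization. The large changes were nearly balanced on each of the 3 scales, with 214, 235 and 233 genes at least 2-fold higher and 219, 205 and 199 at least 2-fold lower. Their number varied with expression level on the log2(FPKM + 1) scale, which pulls the changes of low genes toward 0. Below a mean of 1 FPKM 0.687% of genes rose and 1.37% fell at least 2-fold, at 1 to 10 FPKM 2.32% and 2.63%, at 10 to 100 FPKM 1.76% and 1.55%, and at 100 FPKM or more 1.68% and 1.68%.

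**Figure D1:**
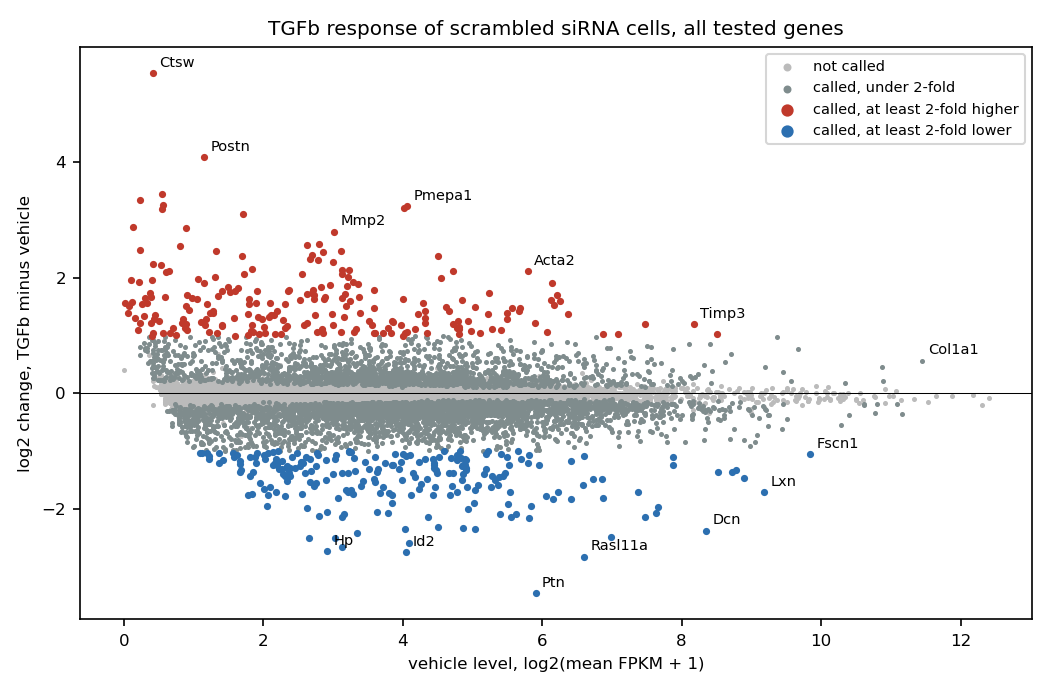
Log2 change (TGFb minus vehicle) of each of the 11208 tested genes against its mean vehicle level as log2(FPKM + 1). Grey points were not called or changed less than 2-fold; the 214 red and 219 blue points changed at least 2-fold, and they span the range of levels, with Ctsw at 5.54 and Ptn at -3.45 as the extremes.

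The 15 largest rises joined matrix, growth factor, epithelial, muscle and kinesin family genes. The cathepsin W gene (Ctsw; mm10 chromosome 19, 5465043 to 5468507, minus strand, with 9 exon bases that also belong to Fibp), which encodes a cysteine protease best known from lymphocytes, had 60.6, 60.4 and 60.3 FPKM with TGFb, against 0.35, 0.11 and 0.55 FPKM with vehicle (log2 5.54, SE 0.353, limma adjusted p = 9.15e-08). Of the 3 tested leukocyte markers, only Fcer1g was called higher with it, and Cd14 and Cd68 were called lower.

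Several of the other leading rises encode proteins that remodel the space around the cell. Gelatinase A (Mmp2; chromosome 8, 92827291 to 92853420, plus strand), a matrix metalloprotease, had 48.2, 60.3 and 57.6 FPKM with TGFb, against 6.56, 6.92 and 7.82 FPKM with vehicle (log2 2.80, adjusted p = 2.65e-09). Platelet-derived growth factor B (Pdgfb; chromosome 15, 79995874 to 80014977, minus strand), a mitogen for stellate cells, had 39.3, 42.5 and 40.1 FPKM with TGFb, against 5.97, 5.44 and 6.39 FPKM with vehicle (log2 2.59, adjusted p = 5.57e-09). The matricellular gene Ccn5 had 8.47 to 9.92 FPKM with TGFb and 0.55 to 0.94 FPKM with vehicle (log2 2.55). In all 3 genes every TGFb library lay above every vehicle library, as the rule for this set required.

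A muscle gene and a kinesin family gene were among the leaders too. Cardiac troponin T (Tnnt2; chromosome 1, 135836354 to 135852260, plus strand), part of the thin filament of heart muscle, had 11.57, 11.01 and 15.08 FPKM with TGFb, against 0.86, 0.64 and 1.07 FPKM with vehicle (log2 2.86, adjusted p = 4.48e-06). The kinesin Kif26b had 32.8 to 37.5 FPKM with TGFb and 4.50 to 5.55 FPKM with vehicle (log2 2.57, adjusted p = 3.21e-08). The remaining leaders Postn, Lamb3, Mfap4 (89 exon bases shared with Mapk7), Krt14, Nt5e, Fam20a and Pkp1, had log2 changes between 2.87 and 4.08, and Pmepa1 had 3.24.

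The 15 largest falls included several genes of secreted proteins. Pleiotrophin (Ptn; chromosome 6, 36714929 to 36810220, minus strand), a heparin-binding growth factor, had 3.95, 4.6 and 4.85 FPKM with TGFb, against 51.6, 63.1 and 62.2 FPKM with vehicle (log2 -3.45, SE 0.306, limma adjusted p = 1.36e-06). The neutrophil chemokine Cxcl1 (chromosome 5, 90891241 to 90893115, plus strand) had 2.25, 2.31 and 2.10 FPKM with TGFb, against 16.7, 14.4 and 15.2 FPKM with vehicle (log2 -2.35, adjusted p = 2.17e-08). No library of one group entered the range of the other for either gene, as the rule for this set required.

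Among the same falls, matrix Gla protein (Mgp), an inhibitor of calcification, had 2.67 to 4.52 FPKM with TGFb and 16.6 to 26.3 FPKM with vehicle (log2 -2.30, adjusted p = 3.39e-05). The retinaldehyde dehydrogenase Aldh1a1 had 4.77 to 6.60 FPKM with TGFb and 30.3 to 33.5 FPKM with vehicle (log2 -2.34, adjusted p = 1.71e-05). Reads of Aldh1a1 and its near-identical neighbour Aldh1a7 may have been shared by the counting, so each value is uncertain. The membrane-bound guidance protein Sema6d had 4.43 to 5.14 FPKM with TGFb and 23.5 to 30.7 FPKM with vehicle (log2 -2.32). The rest, Rasl11a, Id2, Hp, Vstm2a, Lbp, Gdf10, Clca3a1, Lgals2 (38 exon bases shared with Cdc42ep1) and Dcn, had log2 changes of -2.82 to -2.37.

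**Figure D2:**
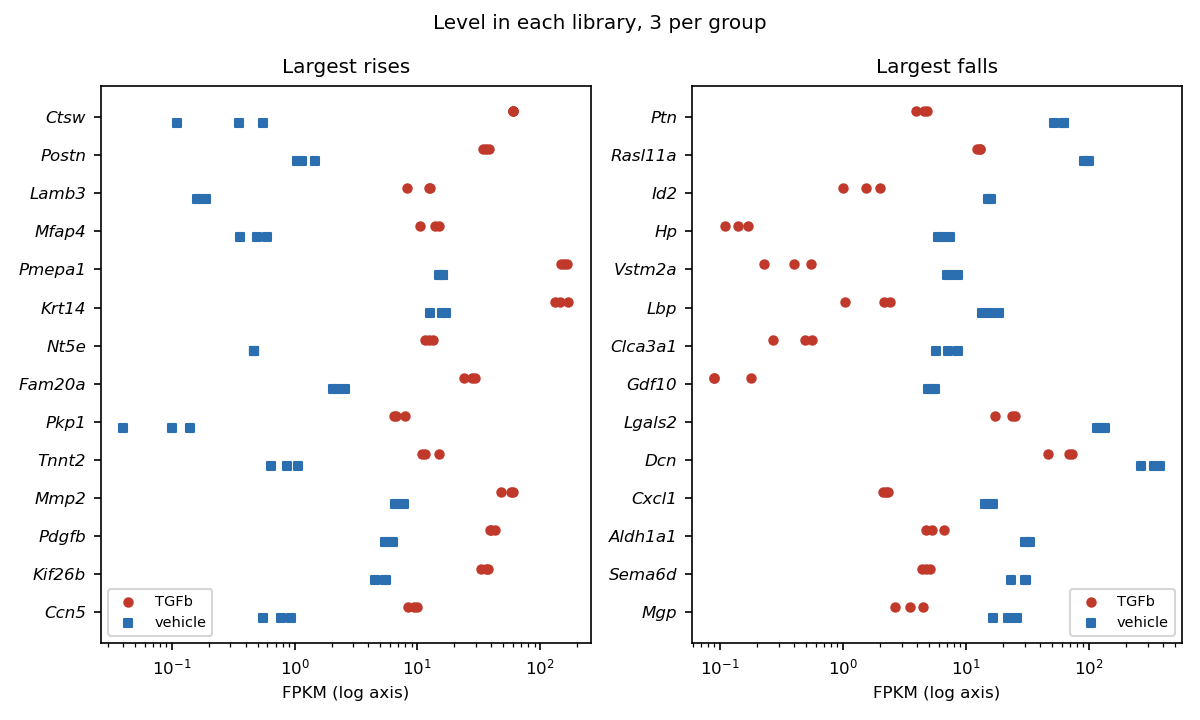
FPKM in each of the 3 TGFb libraries (red circles) and 3 vehicle libraries (blue squares), on a log axis, for 14 of the 15 genes with the largest rise (left) and 14 of the 15 with the largest fall (right). The groups do not overlap for any gene shown, which the choice of genes required, and Ctsw shows the widest gap.

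Promoter sequences were read for the genes that changed at least 2-fold, to show the letters at their starts. RefSeq (build GRCm38.p6) gave windows of 250 bases before to 50 bases after the start for 8939 of the 11208 tested genes, 145 of the 214 risers and 168 of the 219 fallers, with 11456, 196 and 222 windows. A few are printed 5′ to 3′ on the gene's strand: 3 risers with a SMAD half-site (Acta2, Krt14, Nt5e), 1 interferon-induced riser (Isg15) and 2 fallers (Id2, Mmp3). Capitals mark matches, on either strand, to the SMAD half-site CAGAC, the GC-rich SMAD element GGCGCC, the AP-1 site TGAGTCA with its variant that reads TGACTCA, the interferon-stimulated element, which is GAAA followed by any 2 bases and a second GAAA, and the TATA box letters TATAAA in either orientation.
Acta2, chr19:34255324-34255623, minus strand: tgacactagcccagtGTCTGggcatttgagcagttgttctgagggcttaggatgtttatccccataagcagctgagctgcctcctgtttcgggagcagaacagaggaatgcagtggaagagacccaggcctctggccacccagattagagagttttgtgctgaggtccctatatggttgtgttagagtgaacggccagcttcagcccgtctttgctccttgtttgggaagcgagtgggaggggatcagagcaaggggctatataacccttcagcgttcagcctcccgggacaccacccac
Krt14, chr11:100205981-100206280, minus strand: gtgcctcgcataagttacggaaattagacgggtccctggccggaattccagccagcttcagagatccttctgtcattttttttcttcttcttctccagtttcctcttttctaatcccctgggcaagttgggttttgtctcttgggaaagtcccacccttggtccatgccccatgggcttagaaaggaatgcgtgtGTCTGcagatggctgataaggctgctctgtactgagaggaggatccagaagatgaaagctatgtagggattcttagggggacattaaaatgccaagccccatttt
Nt5e, chr9:88327359-88327658, plus strand: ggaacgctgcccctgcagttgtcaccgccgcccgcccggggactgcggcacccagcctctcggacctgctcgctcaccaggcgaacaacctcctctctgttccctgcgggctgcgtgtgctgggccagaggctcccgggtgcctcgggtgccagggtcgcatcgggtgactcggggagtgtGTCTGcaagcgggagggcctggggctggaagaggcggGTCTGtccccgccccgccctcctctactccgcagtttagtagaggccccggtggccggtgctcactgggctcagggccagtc
Isg15, chr4:156200769-156201068, minus strand: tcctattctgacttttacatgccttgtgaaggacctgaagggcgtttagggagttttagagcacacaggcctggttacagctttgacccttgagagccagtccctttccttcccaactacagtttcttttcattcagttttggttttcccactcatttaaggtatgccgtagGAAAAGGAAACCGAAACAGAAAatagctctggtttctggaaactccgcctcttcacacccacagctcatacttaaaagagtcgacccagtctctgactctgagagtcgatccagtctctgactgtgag
Id2, chr12:25096043-25096342, minus strand: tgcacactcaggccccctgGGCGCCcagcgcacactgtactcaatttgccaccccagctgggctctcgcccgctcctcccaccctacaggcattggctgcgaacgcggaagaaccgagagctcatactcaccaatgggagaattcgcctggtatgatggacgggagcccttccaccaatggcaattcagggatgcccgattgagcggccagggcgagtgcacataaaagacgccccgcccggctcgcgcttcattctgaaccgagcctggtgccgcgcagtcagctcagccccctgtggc
Mmp3, chr9:7445572-7445871, plus strand: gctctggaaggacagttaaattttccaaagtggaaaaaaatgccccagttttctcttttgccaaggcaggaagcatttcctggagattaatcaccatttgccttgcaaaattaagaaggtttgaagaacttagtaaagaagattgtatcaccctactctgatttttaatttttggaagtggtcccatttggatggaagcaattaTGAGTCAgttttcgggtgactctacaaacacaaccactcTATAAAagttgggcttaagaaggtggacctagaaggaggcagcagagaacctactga

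The printed windows follow the RefSeq start. That start lay at the end of the GENCODE gene for Isg15 and Mmp3, and inside the gene by 217 bases for Acta2, 412 for Nt5e, 1048 for Id2 and 1518 for Krt14, so those windows can hold transcribed bases of a longer gene model. In these windows the letters of 1 SMAD half-site lie 235 bases before the start in Acta2, 55 before it in Krt14, and 69 and 32 before it in Nt5e. Isg15 holds 3 overlapping interferon-stimulated elements 78, 72 and 66 bases before the start, and Mmp3 an AP-1 site 46 bases before it. Such matches are common. CAGAC or its complement occurred in 56.6% of riser windows, 46.8% of faller windows and 46.7% of all windows, and GGCGCC in 16.8%, 14% and 21.6%. The AP-1 site occurred in 7.65%, 5.41% and 3.56%, and TATAAA on either strand in 14.3%, 14.4% and 6.58%, in both cases more often among risers and among fallers than in all windows.

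The interferon-stimulated element occurred in 11.7% of riser windows, 6.31% of faller windows and 2.98% of all windows. Among risers that stayed at least 2-fold higher without TGFb replicate 2 it was 7.91%. The TEAD site GGAATG, bound by the partners of YAP, occurred in 13.8%, 15.3% and 11.7%, the E-box CACGTG, bound by clock and MYC family factors, in 7.65%, 10.8% and 10.1%, and the GC box GGGCGG in 53.6%, 51.4% and 64.5%, in the same order. GC box and GGCGCC matches can overlap. These shares describe letters in the windows and were not tested.

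Some genes crossed between near silence and clear expression. By the rule of under 0.5 FPKM in all 3 libraries of one group and at least 2 FPKM in all 3 of the other, 17 genes were switched on with TGFb and 12 switched off. The ones switched on included receptors and adhesion genes. The WNT-responsive transcription factor Lef1 had 3.45, 2.79 and 3.28 FPKM with TGFb, against 0.20, 0.37 and 0.37 FPKM with vehicle (log2 1.67, limma adjusted p = 1.14e-06). Lrrc32, which encodes GARP, a surface anchor for latent TGFb, had 2.30, 2.94 and 3.38 FPKM with TGFb, against 0.11, 0.28 and 0.30 FPKM with vehicle (log2 1.65, adjusted p = 9.14e-08).

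Other genes switched on were Pkp1, Lamb3, Nt5e, the heparan sulfate proteoglycan Sdc3, the oxidised lipoprotein receptor Olr1, Crispld2, the acyl-CoA synthetase Acsbg1, Rasl12 (91 exon bases shared with Slc51b), Col6a3, Fam83a, the Eph receptor Epha3, the potassium channel Kcnn4, the phospholipase Pla2g16 and Tnfrsf13c, a receptor for the B cell factor BAFF. Acsbg1 had 2.96 to 3.45 FPKM with TGFb and 0.06 to 0.09 FPKM with vehicle. Crispld2 had 5.24 to 5.89 FPKM with TGFb and 0.14 to 0.24 FPKM with vehicle. Fam83a had 2.13 to 2.72 FPKM with TGFb and 0.27 to 0.48 FPKM with vehicle.

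Stromelysin 1 (Mmp3; chromosome 9, 7445822 to 7455975, plus strand), a matrix metalloprotease with broad substrates, was nearly lost, with 0.04, 0.02 and 0.00 FPKM with TGFb, against 2.29, 2.53 and 2.51 FPKM with vehicle (log2 -1.75, limma adjusted p = 1.22e-08). Its neighbour Mmp13, an interstitial collagenase, had 0.08 to 0.15 FPKM with TGFb and 1.10 to 1.62 FPKM with vehicle (log2 -1.02). These 2 proteases thus moved opposite to Mmp2. The BMP family genes Gdf10 and Gdf2, which lie 3056 bases apart on chromosome 14, were both switched off. Gdf2, the gene of BMP9, had 0.25, 0.24 and 0.24 FPKM with TGFb, against 3.03, 3.40 and 3.21 FPKM with vehicle (log2 -1.76, adjusted p = 2.99e-06).

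The cholesterol exporter Abca1, the plasma proteins Ahsg and Hp, Aldh1a7, Angptl7, the small GTPase Rerg, the carboxypeptidase Cpz, the proton pump subunit Atp6v0a4 (321 exon bases shared with 2 other genes) and the formin Fmnl1 completed the genes switched off. Rerg had 0.05 to 0.13 FPKM with TGFb and 2.90 to 3.65 FPKM with vehicle (log2 -1.94). Abca1 had 0.36 to 0.48 FPKM with TGFb and 2.03 to 2.25 FPKM with vehicle (log2 -1.17). At the rough depth of these libraries, values near 0.1 FPKM rest on few fragments, and the fold changes of such genes are imprecise.

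Measured as FPKM gained or lost, the response was carried by other genes than by fold change. Pro-alpha1(I) collagen (Col1a1; chromosome 11, 94936224 to 94953042, plus strand), the main chain of type I collagen, had 4051, 4116 and 4222 FPKM with TGFb, against 2716, 2760 and 2877 FPKM with vehicle. Its log2 change was only 0.57 (adjusted p = 8.08e-06), but its gain of 1345 FPKM was the largest of all called genes. Gamma actin (Actg1) gained 705 FPKM, the small proteoglycan biglycan (Bgn) 641, the second type I collagen chain Col1a2 576 and the actin-binding peptide gene Tmsb4x 373 FPKM.

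The other large gains were the protease inhibitor Timp3 (373 FPKM; 1733 exon bases shared with Syn3), Actb (303), the matrix protein Fbln2 (277), tropomyosin Tpm1 (255), the collagen cross-linking lysyl oxidase Lox (228), B2m (225) and Creb3l1 (221), a membrane-bound transcription factor of secretory cells. Actb was called narrowly (adjusted p = 0.0479) and lost the call in 5 of the 6 fits that left out a library. B2m had 722, 1189 and 868 FPKM with TGFb, against 703, 676 and 724 FPKM with vehicle, and it lost its call in 5 of the 6 fits that left out a library, with the smallest change without TGFb replicate 2 (log2 0.18, adjusted p = 0.136). Together the 12 genes held 19.5% of all FPKM gained by genes with a higher mean.

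The 12 largest losses held 9.17% of all FPKM lost, a smaller part than the 12 gains held of the FPKM gained. FPKM totals were lower with TGFb (445472 to 462525) than with vehicle (463216 to 483957). Small falls of many genes on this scale enlarge the summed loss, so the shares for gains and losses are not directly comparable. Fascin (Fscn1), which bundles actin in filopodia, had 451, 444 and 431 FPKM with TGFb, against 981, 884 and 881 FPKM with vehicle (log2 -1.05, limma adjusted p = 3.64e-08). Latexin (Lxn; 63 exon bases shared with Gfm1), a carboxypeptidase inhibitor, had 162, 188 and 183 FPKM with TGFb, against 576, 574 and 589 FPKM with vehicle (log2 -1.70, adjusted p = 7.61e-07). Both fell by more than the whole range of either group.

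Iron and metal storage genes were among the losses. Mean FPKM of ferritin heavy chain (Fth1) changed by -396 and of light chain (Ftl1) by -377, and their joint share of the FPKM total was 0.498% with TGFb and 0.647% with vehicle. The metallothioneins Mt1 and Mt2, which bind zinc and copper, changed by -302 and -263 FPKM. Mt1 had 143, 172 and 206 FPKM with TGFb, against 477, 469 and 483 FPKM with vehicle (log2 -1.46, adjusted p = 1.67e-06). S100a11 (-490 FPKM), Rps28 (-318; 88 exon bases shared with Kank3), Dcn (-263), Tuba1b (-261; 426 exon bases shared with a gene model), the scaffold Slc9a3r1 (-257) and Igfbp4 (-239) were the other losses. The calls of S100a11 (adjusted p = 0.0327) and Tuba1b (0.0277) ended in most of the fits that left out a library. Both also ended under median-of-ratios scaling (limma adjusted p = 0.0747 for S100a11 and 0.131 for Tuba1b).

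**Figure D3:**
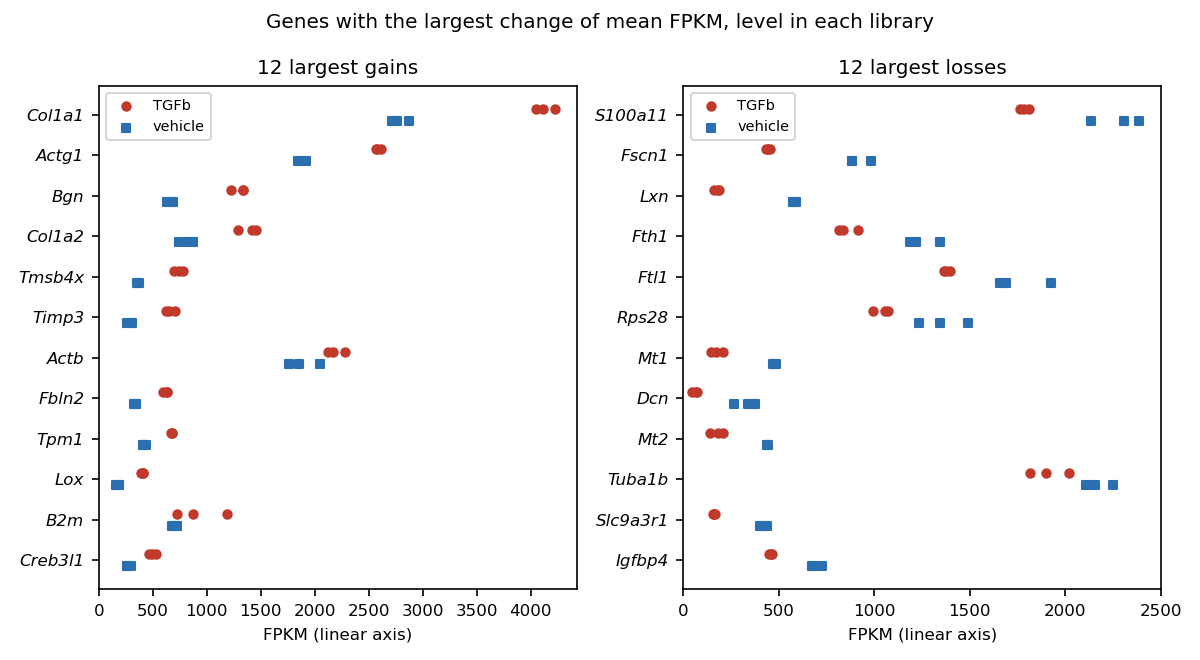
FPKM in each TGFb library (red circles) and vehicle library (blue squares), on a linear axis from 0, for the 12 called genes with the largest gain (left) and the 12 with the largest loss of mean FPKM (right). Col1a1 rises to between 4051 and 4222 with TGFb; B2m is the only gain in which 1 TGFb library, at 1189, lies far from the others.

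As shares of the FPKM total, collagen chains made up 1.54%, 1.56% and 1.61% with TGFb, against 1.03%, 1.13% and 1.18% with vehicle. Col1a1 and Col1a2 alone accounted for 1.23 ± 0.0257% with TGFb and 0.775 ± 0.0473% with vehicle (SD, n = 3 each). Keratins, mostly Krt14, took 0.0387% with TGFb and 0.00719% with vehicle, and cytoplasmic actins 1.07% and 0.811%. Cytosolic ribosomal proteins, the largest group summed, took 13.6% to 14.3% with TGFb and 14% to 14.9% with vehicle, ranges that overlapped. For the collagens, keratins and actins the exact two-sided permutation p was 0.1, the smallest that 3 against 3 libraries can give (0.12 after adjustment over the 65 sums computed), so these shares stand as descriptions.

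Most tested SMAD feedback and TGFb target genes were higher. Of the 23 in this list, 20 were called higher (87.0%) and 2 lower (8.7%), against 16.4% and 29.1% of all genes. Their median log2 change was 0.89, against -0.05 over all genes. The 16.4% higher and 29.1% lower are the shares to set beside the count of every list below. The latency protein Ltbp2, which tethers TGFb-related complexes in the matrix, had 43.2, 36.3 and 41.5 FPKM with TGFb, against 8.24, 8.15 and 8.63 FPKM with vehicle (log2 2.14, adjusted p = 2.09e-07). Skil, the SMAD corepressor SnoN, had 9.93, 10.0 and 9.63 FPKM with TGFb, against 2.35, 2.94 and 2.83 FPKM with vehicle (log2 1.56, adjusted p = 4.83e-08). Both separated completely.

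Ccn2, the connective tissue growth factor, rose by a log2 change of 2.37, the inhibitory SMAD Smad7 by 0.83, and Ldlrad4, a membrane inhibitor of SMAD activation (2798 exon bases shared with Fam210a), by 2.37. The lower pair was Angptl4 (log2 -0.56) and Smad6 (-0.31), the inhibitory SMAD that BMP signals induce. The ligands themselves differed: Tgfb1 had 69.5 to 73.2 FPKM with TGFb and 49.7 to 51.3 FPKM with vehicle (log2 0.51), while Tgfb2 (log2 -0.97) and Tgfb3 (-0.93) fell. The receptor Tgfbr2 had 47.2 to 52.2 FPKM with TGFb and 42.4 to 50.3 FPKM with vehicle, overlapping ranges (adjusted p = 0.366), and Smad3, the transducer, fell by a log2 change of 0.33.

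The Id and BMP list went both ways: of 15 tested genes, 5 were called higher (33.3%) and 7 lower (46.7%). Its median log2 change of -0.06 lay beside the -0.05 of all genes and came to 0.00 after median-of-ratios scaling. Among the falls, the ligand gene Bmp2 had 5.25, 4.70 and 5.01 FPKM with TGFb, against 17.7, 17.9 and 17.7 FPKM with vehicle (log2 -1.65, adjusted p = 3.10e-09). Bmp4 had 10.3, 16.3 and 14.2 FPKM with TGFb, against 46.1, 44.8 and 45.9 FPKM with vehicle (log2 -1.70, adjusted p = 3.91e-06). Id3, an inhibitor of helix-loop-helix factors, had 22.5, 24.4 and 22.4 FPKM with TGFb, against 85.2, 79.6 and 88.3 FPKM with vehicle (log2 -1.83, adjusted p = 5.48e-06). The vehicle values were 3 to 4 times as high in each case.

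Id1 (log2 -1.23), Atoh8 (-1.40), Msx1 (-0.76) and Smad9 (-0.58), which BMP signals are known to induce, fell as well. The secreted antagonists Grem1 (log2 0.92) and Chrd (0.47) rose, and so did Fstl3, which binds activin (1.71; 1157 exon bases shared with Prss57).

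Growth factors and cytokines split in both directions, with 16 of 49 called higher (32.7%, against 16.4% of all genes) and 20 lower (40.8%, against 29.1%). Their median log2 change was 0.03. At least 2-fold changes were found for 9 upward and 10 downward, against 1.91% and 1.95% of all genes. Beside Pdgfb, Pdgfc had 3.32 to 4.61 FPKM with TGFb and 0.39 to 0.58 FPKM with vehicle (log2 1.66, adjusted p = 3.35e-06). The activin subunit Inhba had 9.40 to 10.5 FPKM with TGFb and 2.39 to 2.64 FPKM with vehicle (log2 1.64). Vegfa, which drives vessel growth, had 68.5 to 74.1 FPKM with TGFb and 26.4 to 31.1 FPKM with vehicle (log2 1.25), and Vegfc, its lymphatic relative, rose by a log2 change of 1.43.

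Epithelial and stem cell factors were among the falls. Fgf7, the keratinocyte growth factor, had 1.30 to 1.51 FPKM with TGFb and 6.29 to 8.33 FPKM with vehicle (log2 -1.80, limma adjusted p = 3.64e-08). Kit ligand (Kitl) had 3.19 to 3.35 FPKM with TGFb and 10.0 to 13.7 FPKM with vehicle (log2 -1.62). The alarmin Il33 fell by a log2 change of 1.5, and Il18 by 1.53 with a wider spread, at 0.60, 1.20 and 1.92 FPKM with TGFb and 4.51 to 6.56 FPKM with vehicle. Il11, a cytokine known from fibrotic tissue, reached only 0.96 to 1.26 FPKM with TGFb and 0.40 to 0.74 FPKM with vehicle (log2 0.39, adjusted p = 0.00341).

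Receptor tyrosine kinases as a list lay near the shares over all genes, with 7 of 32 tested called higher (21.9%, against 16.4%) and 10 lower (31.2%, against 29.1%). Single receptors changed strongly, and the PDGF receptor genes diverged. Pdgfra (chromosome 5) had 11.1, 10.7 and 11.2 FPKM with TGFb, against 38.3, 47.9 and 46.8 FPKM with vehicle (log2 -1.91, adjusted p = 1.19e-06). Pdgfrb, the main receptor for PDGF-B, had 30.9, 28.6 and 29.5 FPKM with TGFb, against 12.7, 12.9 and 13.1 FPKM with vehicle (log2 1.14, adjusted p = 3.97e-08). Pdgfra was thus the higher of the pair with vehicle and Pdgfrb with TGFb, on the length-normalised FPKM scale.

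The FGF7 receptor gene Fgfr2 (log2 -1.18; 314 exon bases shared with Ctbp2), the hepatocyte growth factor receptor Met (-1.13), the phagocytic receptor Mertk (-1.03) and the WNT5A receptor Ror1 (-1.03) fell at least 2-fold, while Epha3 rose by 1.74. The receptor Axl showed no such difference, with 148 to 154 FPKM with TGFb and 147 to 152 FPKM with vehicle (log2 0.00, adjusted p = 0.931). The median of the list, -0.04, turned to 0.01 and 0.02 under median-of-ratios scaling and quantile normalization.

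**Figure D4:**
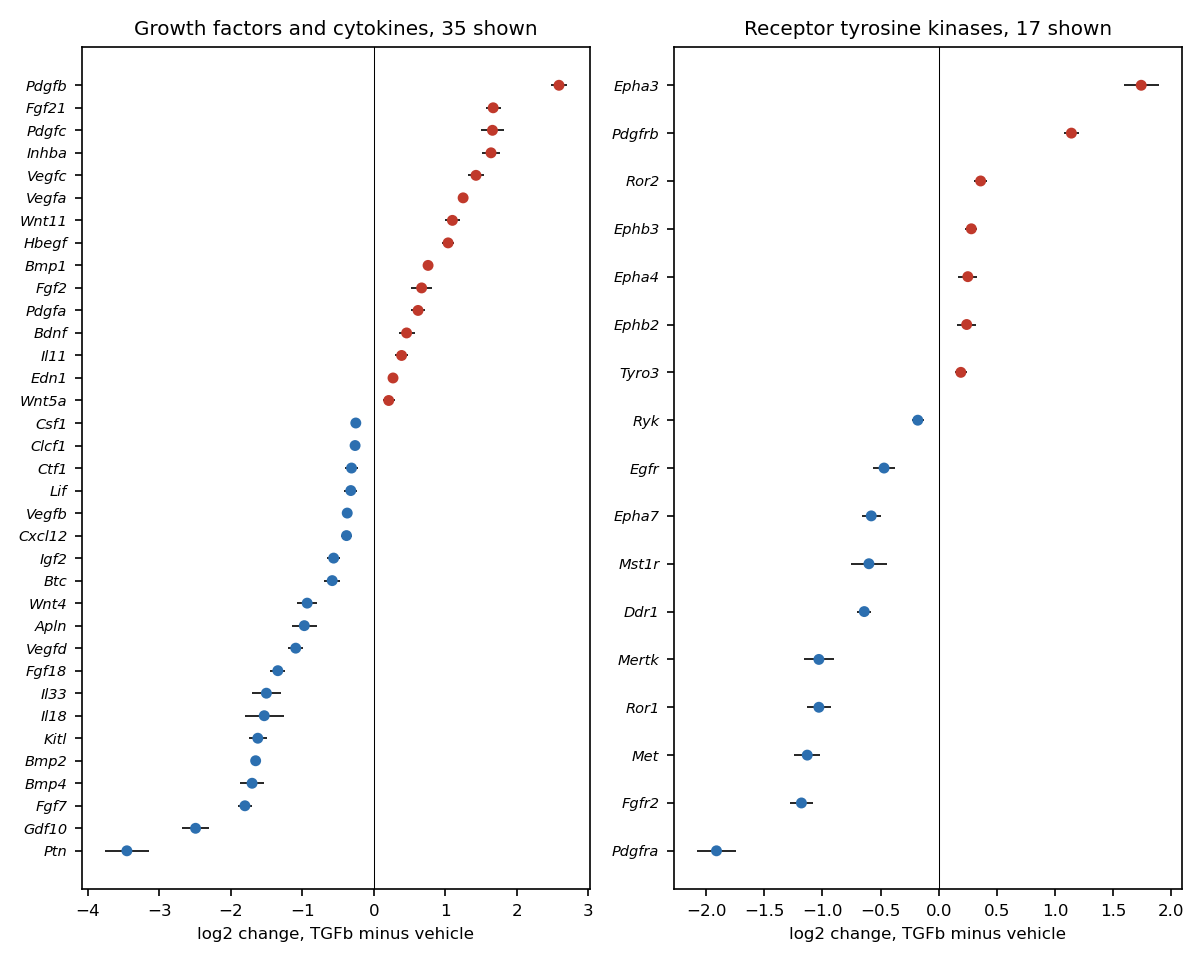
Log2 change (TGFb minus vehicle, limma) with its standard error as a bar, for 35 of the 36 called growth factors and cytokines (left) and the 17 called receptor tyrosine kinases (right). Red points are higher and blue points lower with TGFb; Pdgfb leads the ligands shown and Ptn and Gdf10 end them, and Pdgfrb (1.14) and Pdgfra (-1.91) lie on opposite sides.

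G protein-coupled receptors had 7 of 36 called higher (19.4%, against 16.4% of all genes) and 17 lower (47.2%, against 29.1%). Their median log2 change was -0.10, and only 4 were called higher without vehicle replicate 1. The neuropeptide receptor Npy4r had 2.28 to 2.60 FPKM with TGFb and 7.41 to 8.0 FPKM with vehicle (log2 -1.37, adjusted p = 1.33e-06). The orphan receptor Gpr176 had 13.2 to 13.4 FPKM with TGFb and 5.27 to 6.17 FPKM with vehicle (log2 1.07). The adrenergic receptor Adra1d (log2 -0.92), the prostaglandin receptor Ptger4 (-0.84; 82 exon bases shared with Ttc33) and the lysophosphatidic acid receptor Lpar2 (-0.80) were the next largest changes, all of them falls.

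Feedback genes of the MAP kinase pathway were divided, with 9 of 33 called higher and 9 lower (27.3% each way). Over all genes the shares were 16.4% higher and 29.1% lower, so the share called lower lay near that of all genes. Spry4, an inhibitor of receptor kinase signalling, had 0.95, 0.59 and 0.80 FPKM with TGFb, against 4.13, 4.18 and 3.89 FPKM with vehicle (log2 -1.51, limma adjusted p = 8.56e-08). Trib1, a pseudokinase scaffold, had 8.83 to 9.80 FPKM with TGFb and 26.4 to 29.1 FPKM with vehicle (log2 -1.49). The phosphatase Dusp1 fell (log2 -0.88), whereas the ERK phosphatases Dusp6 (0.72) and Dusp5 (0.63) rose. Members of this list therefore did not share a direction.

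Notch genes went both ways, and their counts lay near the shares over all genes. The ligand Jag1 had 10.9, 9.60 and 10.5 FPKM with TGFb, against 2.90, 3.84 and 3.64 FPKM with vehicle (log2 1.35, adjusted p = 1.48e-07). The target Hes1 had 31.5, 31.4 and 34.3 FPKM with TGFb, against 11, 11.2 and 10.7 FPKM with vehicle (log2 1.48, adjusted p = 2.44e-08). The gamma-secretase subunit Psen2 had 8.94, 9.51 and 8.47 FPKM with TGFb, against 46.0, 38.4 and 39.4 FPKM with vehicle (log2 -2.08, adjusted p = 2.88e-08). Over the list, 5 of 28 genes were called higher (17.9%, against 16.4% of all genes) and 10 lower (35.7%, against 29.1%) on the deposited scale, 9 and 7 under median-of-ratios scaling and 8 and 8 with quantile normalization, so the balance depended on the scaling.

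In the Hedgehog pathway the target Gli1 rose (2.0 to 2.22 FPKM with TGFb and 0.70 to 0.79 FPKM with vehicle, log2 0.83; 62 exon bases shared with Arhgap9), and the co-receptors Gas1 (-1.17) and Cdon (-0.59) fell. Guidance genes had 9 of 30 called higher and 15 lower. Slit ligands diverged: Slit2 had 33.0 to 37.2 FPKM with TGFb and 13.4 to 15.8 FPKM with vehicle (log2 1.18), and Slit3 had 20.1 to 23.4 FPKM with TGFb and 65.7 to 80.4 FPKM with vehicle (log2 -1.70, adjusted p = 1.25e-05). The secreted semaphorin Sema3c fell (log2 -1.09) and Sema3g rose (0.97).

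Matrix proteoglycans moved in both directions, with 8 of 24 called higher (33.3%) and 9 lower (37.5%), 4 and 5 of them at least 2-fold. Biglycan (Bgn) had 1226, 1333 and 1339 FPKM with TGFb, against 627, 665 and 685 FPKM with vehicle (log2 0.98, limma adjusted p = 3.68e-07). Its close relative decorin (Dcn), which binds collagen and TGFb, had 46.6, 73.3 and 68.6 FPKM with TGFb, against 265, 337 and 376 FPKM with vehicle (log2 -2.37, adjusted p = 3.12e-05). Versican (Vcan), a large hyaluronan-binding proteoglycan, had 28.7 to 35.4 FPKM with TGFb and 8.86 to 10.1 FPKM with vehicle (log2 1.66).

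Sdc3 (log2 1.97) and the glypican Gpc1 (1.20) rose, while lubricin (Prg4, -2.14; 204 exon bases shared with Tpr), the TGFb co-receptor betaglycan (Tgfbr3, -1.75) and osteoglycin (Ogn, -1.51) fell. Tgfbr3 had 3.06 to 3.53 FPKM with TGFb and 12.3 to 14.1 FPKM with vehicle. Enzymes that build and edit the sugar chains were called higher in 17 of 39 cases (43.6%) and lower in 8 (20.5%). The extracellular heparan sulfatase Sulf2 (154 exon bases shared with Ncoa3) had 40.3, 50.4 and 49.9 FPKM with TGFb, against 6.83, 8.59 and 7.63 FPKM with vehicle (log2 2.46, adjusted p = 5.57e-09).

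Hyaluronan metabolism moved at both ends. The synthase Has2 had 4.83 to 6.09 FPKM with TGFb and 1.16 to 1.56 FPKM with vehicle (log2 1.40, limma adjusted p = 1.91e-07). Cemip, a protein required for hyaluronan breakdown, had 3.69 to 4.51 FPKM with TGFb and 15.97 to 17.23 FPKM with vehicle (log2 -1.75, adjusted p = 1.52e-07). Heparan sulfotransferases differed, with Hs6st2 higher (log2 1.05) and Hs3st1 lower (-1.23).

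Collagen chains were called higher in 13 of 21 cases (61.9%) and lower in 4 (19.0%), with a median log2 change of 0.34. The network-forming chain Col8a2 had 30.7, 35.7 and 33.8 FPKM with TGFb, against 5.18, 5.63 and 5.70 FPKM with vehicle (log2 2.40, adjusted p = 1.82e-09). The chains of collagen VI parted. Col6a3 had 2.90 to 3.99 FPKM with TGFb and 0.12 to 0.19 FPKM with vehicle (log2 1.92), whereas Col6a1, at 246 to 293 FPKM with TGFb and 453 to 496 FPKM with vehicle (log2 -0.80), and Col6a2 (log2 -0.90) fell. Col6a3 stayed far below its partners in FPKM in both groups.

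Basement membrane collagens Col4a5 (log2 -1.05) and Col4a6 (-1.13), which share a divergent promoter region on the X chromosome, fell together. Col3a1 had 97.9 to 138 FPKM with TGFb and 80.6 to 117 FPKM with vehicle, overlapping ranges (log2 0.29, adjusted p = 0.28), and fibronectin (Fn1) had 1136 to 1260 and 1122 to 1363 FPKM (log2 -0.09, adjusted p = 0.365). Of 15 integrin subunits 7 were called higher (46.7%) and 5 lower (33.3%). Itgb5 had 85.5 to 90.1 FPKM with TGFb and 27.0 to 28.2 FPKM with vehicle (log2 1.62), and Itgb3 (1.54) and Itga5 (1.11) rose too. Itgb5 and Itgb3 encode partners of the alpha-v chain in receptors that activate latent TGFb.

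Genes with ADAM and ADAMTS symbols, a class that includes the ADAMTS-like gene Adamtsl4, had 7 of 24 called higher (29.2%) and 11 lower (45.8%). The falls were led by Adamts9 at 0.87 to 1.09 FPKM with TGFb and 6.85 to 8.47 FPKM with vehicle (log2 -2.14, 1805 exon bases shared with other gene models) and by Adamtsl4 (-1.35). Complement and coagulation genes had 5 of 17 called higher (29.4%) and 10 lower (58.8%), and 8 of the lower ones fell at least 2-fold, against 1.95% of all genes. Complement component C3 had 14.95, 19.35 and 20.35 FPKM with TGFb, against 50.8, 70.1 and 74.9 FPKM with vehicle (log2 -1.78, adjusted p = 0.000112). The classical pathway genes C1s1 (log2 -1.42), C1ra (-1.23) and C1rl (-1.60) and the regulator Clu (-1.45) fell. The risers Serpinf1 (1.91), Plaur, Plau and Pros1 belong to coagulation, fibrinolysis or the serpins.

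Genes at the contacts between matrix and actin rose more often than they fell. Of 57 tested focal adhesion and actin regulators, 25 were called higher (43.9%, against 16.4% of all genes) and 12 lower (21.1%, against 29.1%). Their median log2 change was 0.11. The LIM protein Csrp2, first known from smooth muscle, had 66.0, 69.0 and 66.5 FPKM with TGFb, against 24.3, 23.1 and 25.7 FPKM with vehicle (log2 1.43, limma adjusted p = 2.65e-09). Talin 2 (Tln2, log2 1.08), which links integrins to actin, and Pdlim7 (1.02) also rose at least 2-fold. Fscn1 (-1.05), ezrin (Ezr, -0.84) and profilin 2 (Pfn2, -0.82) led the falls.

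Adhesion molecules had 10 of 22 called higher (45.5%) and 8 lower (36.4%). Ncam1, a neural cell adhesion molecule also known from activated stellate cells, had 55.2 to 57.8 FPKM with TGFb and 16.04 to 19.97 FPKM with vehicle (log2 1.57, adjusted p = 1.20e-07). Vcam1, the leukocyte ligand, had 33.1 to 39.9 FPKM with TGFb and 100 to 109 FPKM with vehicle (log2 -1.48, adjusted p = 4.64e-07).

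Among calcium and potassium channels and pumps, 11 of 30 were called higher (36.7%) and 8 lower (26.7%). The plasma membrane calcium pump Atp2b4 had 9.33 to 10.4 FPKM with TGFb and 1.61 to 2.42 FPKM with vehicle (log2 1.83, limma adjusted p = 3.83e-08). Kcnn4, a calcium-gated potassium channel, had 2.07 to 2.45 FPKM with TGFb and 0.06 to 0.12 FPKM with vehicle (log2 1.59). In cyclic nucleotide signalling, the adenylyl cyclase Adcy7 (log2 1.78), the cGMP-dependent kinase Prkg2 (1.55) and the phosphodiesterase Pde2a (1.51, 3955 exon bases shared with a gene model) rose. Of the 24 tested genes of that list, 9 were called higher (37.5%) and 8 lower (33.3%).

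Amino acid supply and tRNA charging moved mostly upward. Of 23 cytosolic aminoacyl-tRNA synthetases, 16 were called higher (69.6%) and 1 lower (4.35%), with a median log2 change of 0.33, although none reached 2-fold. Leucyl-tRNA synthetase (Lars) had 45.2, 44.0 and 43.4 FPKM with TGFb, against 25.8, 26.8 and 25.4 FPKM with vehicle (log2 0.75, limma adjusted p = 1.18e-07). The 1 called lower was Qars (log2 -0.14), a call that ended under both other scalings. For serine, glycine and proline synthesis and linked steps, 16 of 32 were higher and 8 lower.

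Argininosuccinate synthase (Ass1), which makes the precursor of arginine, had 30.03, 34.13 and 36.3 FPKM with TGFb, against 5.72, 5.59 and 6.47 FPKM with vehicle (log2 2.31, adjusted p = 4.85e-08). Mitochondrial Shmt2 (log2 0.77) and Aldh1l2 (1.14; 1056 exon bases shared with D10Wsu102e), which act in one-carbon metabolism, rose, as did Asns (0.78) and Pycr1 (0.71), the last step of proline synthesis. The transcript of Aldh4a1, an enzyme of proline oxidation, moved the other way, at 3.95 to 4.81 FPKM with TGFb and 7.49 to 8.42 FPKM with vehicle (log2 -0.72).

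Of 31 tested tricarboxylic acid cycle genes, 17 were called lower (54.8%, against 29.1% of all genes) and 0 higher by limma on the deposited scale, with a median log2 change of -0.18. The counts were 4 higher and 14 lower under median-of-ratios scaling, and 3 higher and 15 lower with quantile normalization. Idh1 (log2 -0.58), Sdhc (-0.54) and Sdhd (-0.48) led the falls, all under 2-fold. At an unadjusted p under 0.05, 2 of the 31 were higher, and 2 were called higher without vehicle replicate 1.

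Aldehyde dehydrogenases had 10 of 14 called lower (71.4%, against 29.1% of all genes) and 2 higher (14.3%, against 16.4%). Their median log2 change was -0.53. Aldh3a1 had 0.46, 0.60 and 0.67 FPKM with TGFb, against 4.95, 5.24 and 5.42 FPKM with vehicle (log2 -1.98, limma adjusted p = 4.17e-06), and Aldh3b1 fell by a log2 change of 1.75. The 2 risers, Aldh1l2 and Aldh18a1 (log2 0.52), serve one-carbon metabolism and proline synthesis. Eicosanoid genes had 4 of 19 called higher (21.1%) and 10 lower (52.6%). The inducible cyclooxygenase Ptgs2 had 24.9, 17.9 and 17.0 FPKM with TGFb, against 6.01, 5.38 and 5.51 FPKM with vehicle (log2 1.64, adjusted p = 3.22e-05).

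Growth-arrest genes of the Gadd45 family rose together. Gadd45a had 21.6, 26.2 and 26.0 FPKM with TGFb, against 6.14, 6.79 and 5.45 FPKM with vehicle (log2 1.84, limma adjusted p = 4.83e-08), Gadd45g rose by a log2 change of 1.79 and Gadd45b by 1.21. The cyclin-dependent kinase inhibitor Cdkn1a had 38.3, 42.5 and 41.0 FPKM with TGFb, against 11.1, 11.2 and 10.9 FPKM with vehicle (log2 1.79, adjusted p = 3.24e-06). Over the list of DNA damage and p53 targets, 10 of 27 were called higher (37.0%, against 16.4% of all genes) and 5 lower (18.5%, against 29.1%). Their median log2 change was 0.17. The p53 targets Sesn1 (-0.69) and Btg2 (-0.62) fell, and Mdm2 had 15.8 to 18.1 FPKM with TGFb and 14.7 to 14.9 FPKM with vehicle without passing the test (adjusted p = 0.0808). The large T antigen of SV40, used to immortalise the line, is known to bind p53.

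Transcription factor families differed. Of 5 tested Sox genes 4 were called higher and 1 lower. Sox8 had 6.87 to 7.89 FPKM with TGFb and 1.16 to 1.30 FPKM with vehicle (log2 1.91, limma adjusted p = 1.22e-08), and Sox9, known from cartilage and fibrotic liver, rose by 0.80. Foxc2 had 4.76 to 6.19 FPKM with TGFb and 0.41 to 0.64 FPKM with vehicle (log2 2.10). Klf10, an early TGFb-inducible gene, rose by a log2 change of 1.04. Of 18 Hox genes 9 were called lower and 1 higher, with Hoxa5 (log2 -0.85) and Hoxa4 (-0.69) down and Hoxb9 (0.74) up, where 3 were higher without the filter on low values.

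Tetraspanins, which organise membrane proteins, had 9 of 13 called lower (69.2%, against 29.1% of all genes) and 0 higher by limma (against 16.4%). Tspan4 (292 exon bases shared with Chid1) had 43.0 to 48.2 FPKM with TGFb and 65.2 to 75.3 FPKM with vehicle (log2 -0.60). The same tetraspanin counts were found under both other scalings, and 0 were higher at an unadjusted p under 0.05. S100 proteins had 5 of 9 called lower (55.6%) and 0 higher (also 0 at an unadjusted p under 0.05). S100a4 was among those called lower (log2 -0.86, 302 exon bases shared with a gene model). Tripartite motif genes had 13 of 36 called higher (36.1%) and 4 lower (11.1%). The interferon-induced member Trim30a had 0.46, 2.75 and 0.74 FPKM with TGFb, against 0.20 to 0.28 FPKM with vehicle, and its log2 change of 0.78 was 0.37 without TGFb replicate 2 (adjusted p = 0.0282).

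Among large families, the shares over all genes being 16.4% higher and 29.1% lower, counts were as follows. Solute carriers (a symbol class that includes the scaffold Slc9a3r1) had 34 of 177 called higher and 52 lower. Genes named Tmem had 14 of 148 higher and 49 lower, among them the overlapping pair Tmem176a (log2 -1.70) and Tmem176b (-1.35), which share 81 exon bases. The higher count fell to 6 to 9 in 4 of the fits that left out a library: TGFb replicate 2 (9) or 3 (8), or vehicle replicate 2 (7) or 3 (6). Proteasome genes had 4 of 38 higher and 2 lower, and cytosolic ribosomal protein genes 0 of 78 higher (also 0 at an unadjusted p under 0.05 in limma) and 9 lower. The ribosomal counts were 5 higher and 8 lower with quantile normalization, 3 lower under median-of-ratios scaling, and 2 lower without TGFb replicate 1 or vehicle replicate 1.

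**Figure D5:**
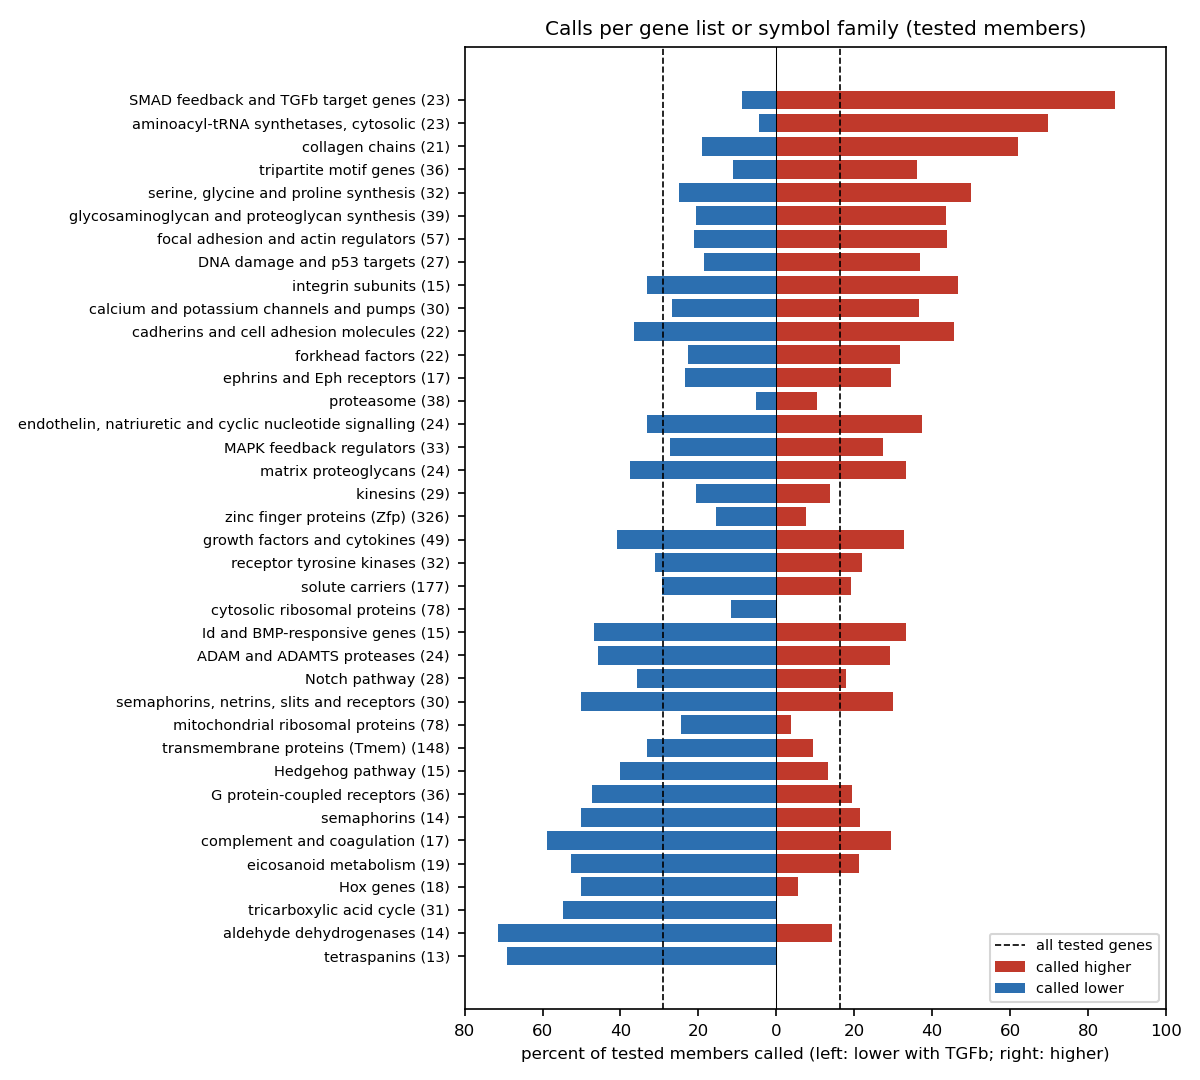
Percent of tested members called higher (red, right) and lower (blue, left) with TGFb in gene lists and symbol families with at least 13 tested genes (number in brackets), cell type markers left out, ordered by the difference. Dashed lines give the shares over all tested genes, 16.4% higher and 29.1% lower; SMAD feedback and TGFb target genes lie at the top and tetraspanins at the bottom.

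Neighbouring genes sometimes changed together. Of the 214 genes at least 2-fold higher, 24 (11.2%) had an adjacent tested gene that was also at least 2-fold higher, against 3.73% of all tested genes with such a neighbour. For the 219 genes at least 2-fold lower the numbers were 29 (13.2%), against 3.85%. Adjacent pairs included Tnnt2 and Pkp1, which lie 19135 bases apart on chromosome 1, Mmp2 and Lpcat2 (1919 bases), Mt2 and Mt1 (5514 bases) and the complement genes C1rl, C1ra and C1s1. Some of these pairs are duplicated genes with similar sequence, between which reads may be split.

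The same 30 leading genes were compared in cells that carried the Bmal1 siRNA. Their TGFb change had the same sign there in all 30 and was smaller in all 30, and the difference passed the interaction test for 22 (limma, adjusted p under 0.05, against 14.4% of all genes). Since the 30 were chosen for a large change with scrambled siRNA, a smaller change elsewhere is favoured by the choice and stands as a description. The Bmal1 siRNA library with TGFb numbered replicate 2 stood apart, with a weaker response in these genes: Pmepa1 had 42.8, 19.2 and 34.9 FPKM in the 3 Bmal1 siRNA libraries with TGFb, and Ptn 10.7, 40.3 and 16.9 FPKM. Without that library the difference was called for 23 of the 30, among them all 22, and the change was smaller in 29, the exception being Aldh1a1. The Bmal1 transcript itself (Arntl) had 10.5, 10.8 and 10.9 FPKM with TGFb, against 5.43, 5.19 and 4.91 FPKM with vehicle, in the scrambled siRNA cells (log2 0.92, adjusted p = 6.40e-07).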

How the data were processed

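The 12 libraries of EMS404 cells comprise 3 for each combination of scrambled or Bmal1 siRNA with TGFb or vehicle; groups were taken from the sample titles. The authors deposited 1 table of FPKM values with 2 decimals, in which the unit is given by the file headers. Per the submitters' processing notes the build was mm10, and the tools, whose roles are not stated, were RSEM, DESeq2, Bowtie2 2.2.5 and HISAT2 2.0.4. The sources used here do not give strand use. FPKM is relative to each library, so abundant genes that rise lower all others. Whole reads could not be recovered from the FPKM values, and only 37.7% to 54.2% of low short genes lay near whole fragments at the best depth per library. Counting error is therefore unknown.

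Of 16290 lines, 555 without an identifier (1.304% to 1.464% of a library's total) and the lower line of 15 repeated identifiers were dropped. GENCODE M21 (mm10) gave symbols and coordinates for 15717 of 15720. Values were fitted as log2(FPKM + 1) with limma 3.58.1 (R 4.3.3) using 1 mean per group across the 12 libraries and a variance trend on intensity; degrees of freedom were 8 residual plus 4.99 prior. Tests were two-sided, with Benjamini-Hochberg adjustment over 11208 genes, and tested on simulated data; every adjusted p is from it. Fold changes on this scale understate those of low genes. Genes were named by rule: the 15 largest rises and falls with non-overlapping groups, at least 1 FPKM in the higher group and no predicted gene model, the 12 largest gains and losses of FPKM, switched genes, up to 4 called members per list, and Arntl. All other genes named, such as Isg15, Tgfb1, Tgfbr2, Axl, Col3a1, Bmp2, Mmp13 and further list members and markers, were chosen after their values were seen. A few genes and lists that the rule names are not reported here, but stay in all fits and counts. The members and lists were chosen with earlier results of these data known. Of the 271 genes named by rule, 39 share exon bases with another protein-coding gene, whose reads cannot be told apart without strand.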

Additional observations from a re-analysis of the deposited data

Results flagged for a closer look

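The response of 22 of the 30 leading genes differed between scrambled and Bmal1 siRNA cells by the interaction test in limma (adjusted p 2.97e-05 to 0.0357). Each value below, for 21 of the 22, is the log2 change with TGFb in scrambled siRNA cells minus that in Bmal1 siRNA cells. Among rises it was 2.34 for Krt14, 2.30 for Pmepa1, 1.96 for Mfap4, 1.89 for Pkp1, 1.80 for Pdgfb, 1.74 for Ccn5, 1.65 for Kif26b, 1.60 for Nt5e, 1.60 for Lamb3, 1.49 for Fam20a, 1.45 for Mmp2 and 1.22 for Postn. Among falls it was -2.18 for Ptn, -1.95 for Mgp, -1.73 for Vstm2a, -1.62 for Hp, -1.55 for Cxcl1, -1.48 for Rasl11a, -1.45 for Gdf10, -1.12 for Clca3a1 and -1.04 for Id2. In each of these 21 the change was smaller with the Bmal1 siRNA. The 30 genes were chosen for a large change in the scrambled siRNA libraries, and the test uses those same values, so a smaller change elsewhere is favoured by the choice and is no independent result. In the Bmal1 siRNA cells, TGFb replicate 2 stood apart with a weaker response: the 3 libraries with TGFb had 1.49, 0.48 and 1.53 FPKM of Pkp1 and 7.38, 23.5 and 12.1 FPKM of Mgp. Without that library the difference was 1.98 for Pmepa1, 2.11 for Krt14, 1.63 for Pkp1, -1.68 for Ptn and -1.54 for Mgp, each nearer to 0, and 23 of the 30 were called, the added one being Ctsw (0.94, adjusted p = 0.00597). With all 12 libraries no difference was shown for the other 8, among them Ctsw (1.53, adjusted p = 0.0574) and Aldh1a1 (-0.35, adjusted p = 0.597).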

How the results depend on the processing

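The number of genes called was 4390 to 4693 when each of the 6 libraries was left out in turn, with 1566 to 1675 higher and 2818 to 3018 lower, 202 to 238 at least 2-fold higher and 206 to 237 at least 2-fold lower. Counts at 2-fold depended on the pseudocount, since it sets how far a fold change of a low gene is pulled toward 0: with 0.1 FPKM, 314 genes were at least 2-fold higher and 391 lower, and with 5 FPKM 110 were higher and 95 lower. With no filter, a minimum of 2 FPKM, median-of-ratios scaling, quantile normalization, only the 6 libraries or no variance trend, 4611 to 5349 genes were called. Without the 10 most abundant genes the share of collagen chains differed by 0.148 percentage points, against 0.456 with them, because Col1a1 is among the 10. The groups share replicate numbers, and over all genes same-numbered libraries showed little joint deviation (correlations -0.02, -0.15 and 0.08). Such correlations cannot tell whether same-numbered libraries were handled together. Some genes, such as Dcn and C3, were lowest in replicate 1 of both groups, and others, such as Tmsb4x, were not. With the replicate block 5360 genes were called, 1946 higher and 3414 lower. Of the 271 genes named by rule, 256 kept their call in every setting and none changed sign, and the 15 that lost it in at least 1 were mostly small changes such as Actb, B2m, S100a11, Tuba1b and Rplp2; the leading 30 kept theirs. Of 122 counts per list and direction, 43 moved by more than 1.5 times in at least 1 setting. The interaction test called 20 to 29 of the 30 leading genes when each of the 12 libraries was left out, against 22. These fits, and the values of Isg15, B2m and Trim30a and the motif share without TGFb replicate 2, were added after seeing the data. The planned amino acid composition was not run, since protein sequences were not used here. The number of libraries and the depth limit genes below about 1 FPKM.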
